A study of Mus musculus with 16 samples.

Results

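Open chromatin was examined around 10 genes of the Hippo-TEAD pathway and the muscle ankyrin repeat family in mouse myoblasts with inducible MyoD1. The genes are the TEAD transcription factors Tead1, Tead2, Tead3 and Tead4, the coactivators Yap1 and Wwtr1, the TEAD cofactors Vgll2 and Vgll3, and the ankyrin repeat genes Ankrd1 and Ankrd2. A region was assigned to a gene where an accessible peak lay in the gene body or within 50 kb of it (GENCODE M21 annotation, mm10). By this rule 47 of 26213 regions belonged to the 10 windows in lists of equal length, in which each library was represented by its strongest peaks by −log10 p, as many as the shortest kept list holds, and 124 of 80290 regions when all deposited peaks were used. Ankrd2 was selected because a region close to it depended on doxycycline in differentiation medium, so its values in that contrast are given below as a description without a test.

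The C2C12iMyoD1 cells are a polyclonal C2C12 population in which a V5-Halo-tagged MyoD1 sits under a doxycycline-inducible promoter on an integrated transposon. Every group kept the endogenous Myod1 gene. The cells were in growth medium (GM) after seeding at 75000 cells or were shifted for 24 h to low-serum differentiation medium (DM) after seeding at 300000 cells, each with doxycycline for 24 h (+dox) or without it (no dox), so medium and seeding number changed together and cannot be told apart. ATAC-seq, in which a transposase inserts adapters into accessible DNA, was run on 4 libraries of each group. The study left out replicate 1 of both DM groups as poor libraries, and the same 14 libraries were used here, 4 for each GM group and 3 for each DM group. The labels number the libraries of each group as biological replicates without describing separate cultures, so p-values measure the spread between these libraries.

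TEAD proteins bind DNA at the M-CAT element, with the core letters CATTCC, and need a coactivator to drive transcription. YAP1 and TAZ, the product of Wwtr1, are held in the cytoplasm when the Hippo kinases are active and join TEADs in the nucleus when they are not. Vestigial-like proteins such as VGLL2 and VGLL3 compete for the same TEAD surface, and VGLL2 is restricted largely to skeletal muscle. Ankrd1 encodes CARP, a stretch- and YAP-responsive ankyrin repeat protein, and Ankrd2 encodes a related protein of the muscle I-band and nucleus.

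The longest kept list held 58587 peaks, and GM no dox replicate 1 had the shortest. Lists held 23690 to 40599 peaks in DM no dox and 46241 to 51340 in DM +dox, so list length moved with dox in DM and its part in the results was not tested. The MACS2 background recovered from the peak values ran from 0.339 to 1.13 fragments per base. Of 6 myoblast markers, the Myod1 start carried a peak in the list of equal length in 14 of 14 libraries, Cdh15 in 3 and Myf5, Itga7, Des and Pax7 in 0. Among all deposited peaks the last 5 had a start peak in 10, 6, 4, 13 and 9 libraries. The start of Myog, Myh3, Acta1 or Mymk carried a peak in 0 libraries, Ckm in 1 and Tnnt3 in 3. Of the markers of other cell types, Cdh5, Ptprc, Sox10 and Epcam carried a start peak in 0 libraries and Pecam1 in 8, spread over all 4 groups.

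The sequences below carry the regions on which the comparisons turn. They are read from GRCm38 (mm10), each on the strand of its gene and from 5′ to 3′, and stretches in annotated untranslated exons are limited to 30 bases. The first is the centre of the accessible region upstream of Ankrd2 (chr19:42035512-42035712, plus strand), with its single E-box (CANNTG, the general site of bHLH factors) in capitals. The next pair come from the Tead1 intron (chr7:112760870-112760995, plus strand) and from the Tead2 window inside Ccdc155 (chr7:45192102-45192227, plus strand), with CAGCTG, the E-box form preferred by MyoD1, in capitals.
Ankrd2 upstream region: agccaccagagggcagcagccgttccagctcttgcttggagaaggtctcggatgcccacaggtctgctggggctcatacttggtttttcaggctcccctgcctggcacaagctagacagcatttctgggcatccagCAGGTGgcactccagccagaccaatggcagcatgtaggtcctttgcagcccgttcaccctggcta
Tead1 intron region: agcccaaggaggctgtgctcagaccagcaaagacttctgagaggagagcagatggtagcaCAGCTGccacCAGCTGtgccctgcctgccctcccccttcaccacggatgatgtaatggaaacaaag
Tead2 window region: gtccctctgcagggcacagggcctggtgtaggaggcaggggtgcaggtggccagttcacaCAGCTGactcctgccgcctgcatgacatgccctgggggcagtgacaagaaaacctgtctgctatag

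The remaining sequences show the M-CAT core at the starts of 7 members, with CATTCC, or GGAATG where the core is on the other strand, in capitals. Positions are chr7:112679331-112679360 for Tead1 and chr16:65815081-65815176 for Vgll3 on the plus strand. On the minus strand they are chr17:28350937-28351032 for Tead3, chr6:128300466-128300495 for Tead4, chr9:8004687-8004782 for Yap1, chr3:57575996-57576091 for Wwtr1 and chr19:36120037-36120066 for Ankrd1.
Tead1 start: tggcgttcatttCATTCCtgtcctCATTCC
Tead3 start: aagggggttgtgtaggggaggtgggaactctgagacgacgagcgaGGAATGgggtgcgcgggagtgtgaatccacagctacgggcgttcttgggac
Tead4 start: ccgcgcgcgtctCATTCCagcgccCATTCC
Yap1 start: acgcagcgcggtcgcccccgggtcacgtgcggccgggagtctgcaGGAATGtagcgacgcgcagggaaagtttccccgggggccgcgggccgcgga
Wwtr1 start: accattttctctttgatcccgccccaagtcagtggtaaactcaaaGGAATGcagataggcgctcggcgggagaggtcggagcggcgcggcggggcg
Vgll3 start: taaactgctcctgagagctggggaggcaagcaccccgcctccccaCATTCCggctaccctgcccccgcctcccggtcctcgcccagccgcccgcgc
Ankrd1 start: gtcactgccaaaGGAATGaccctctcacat

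The M-CAT core was frequent at the accessible starts in these windows. Searched on both strands within 100 bases of the summit, CATTCC stood in 8 of the 16 regions within 1 kb of any gene start (50%), against 717 of 9009 such regions genome-wide (7.96%). At distances beyond 1 kb it stood in 9 of 31 regions (29%) against 21.7% genome-wide. CAGCTG, which reads the same on both strands, stood in 11 of the 31 distal regions (35.5%) and in 1 of the 16 near starts (6.25%), against 22.6% and 11.4% genome-wide. TGANTCA, the AP-1 site, stood in 16 of 31 distal regions (51.6%) against 48.5%, and in 0 of 16 near starts against 6.01%. The letters CAGCTG are one form of the general E-box, and no other of these motifs contains another. The general E-box stood in 22 of the 31 distal regions (71%) against 71.4% genome-wide.

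The RefSeq promoter windows, 300 bases around each start (GRCm38.p6), gave a count that did not depend on where a peak fell. They were matched for 8 of the 10 members, all but Tead1 and Tead4. CATTCC was present in a promoter of 5 of the 8 genes, Tead3, Yap1, Wwtr1, Vgll3 and Ankrd1. Counted by promoter, it was in 7 of their 11, against 14.7% of all 32851 promoters. CAGCTG was in 0 of the 11 promoters and in 16.3% of all promoters. A match in the letters is a description and not a bound site, and genes within a family are not independent draws.

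**Figure D1:**
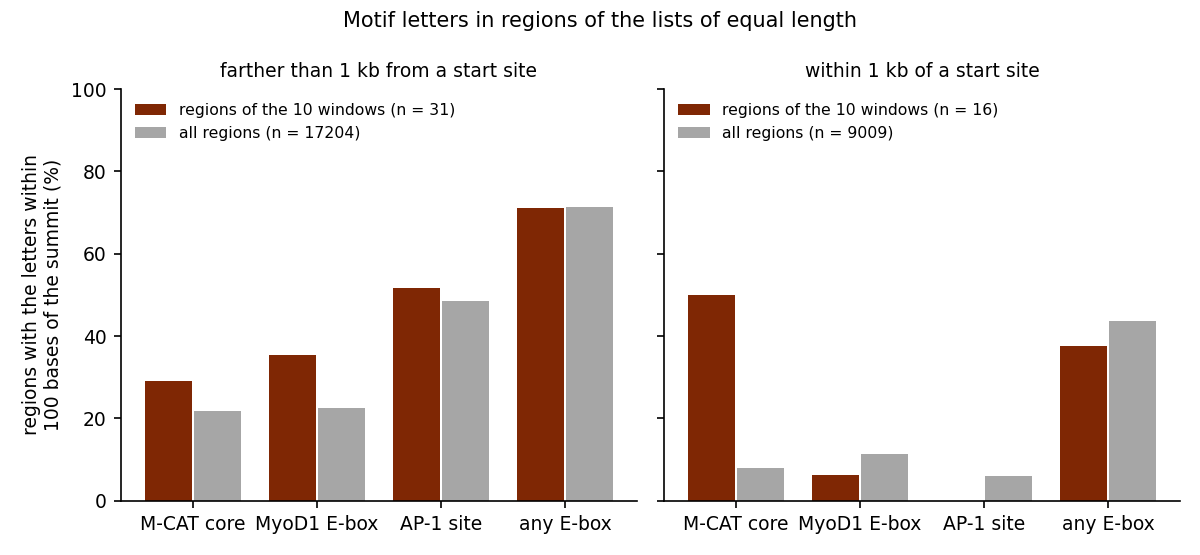
Percentage of regions that hold each motif within 100 bases of the summit (y axis), for the M-CAT core CATTCC, the MyoD1 E-box CAGCTG, the AP-1 site TGANTCA and any E-box CANNTG. Red bars are regions of the 10 windows and grey bars all regions of the lists of equal length. Within 1 kb of a start, the M-CAT core stands at 50% against 7.96%.

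The 4 TEAD genes differed in how much accessible chromatin surrounded them. Tead1 (chr7:112679318-112906807) had 10 regions in lists of equal length and 29 in full lists, Tead4 (chr6:128224288-128300823) had 6 and 14, Tead3 (chr17:28331671-28350817) had 5 and 13, and Tead2 (chr7:45215753-45233644) had 2 and 6. Tead1 also had the longest window, 327 kb, and per 100 kb its 3.05 regions in lists of equal length lay close to the 3.4 of Tead4 and 4.2 of Tead3. Tead2 had 1.7 per 100 kb. The windows also cover other protein-coding genes, 8 for Tead2, 5 for Tead3 and 1 each for Tead1 and Tead4. The Tead3 count includes regions 67 bases from the start of Fance and 26 bases from that of Rpl10a. Of the coactivators, Wwtr1 (chr3:57455649-57575910) had 4 and 20 regions and Yap1 (chr9:7931999-8004596) had 2 in both. The Yap1 regions of the lists of equal length both lay at its start. In full lists these merged into 1 and the other Yap1 region had a peak in a single library. Vgll2 (chr10:52022502-52028471) had 2 and 7, Vgll3 (chr16:65815257-65866368) had 3 and 7, and Ankrd1 (chr19:36111961-36120099) had 3 and 8. Ankrd2 (chr19:42036000-42045110), in a window of 109 kb with 5 other protein-coding genes, had 10 and 18, or 9.16 per 100 kb in lists of equal length.

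The limit of 50 kb fell between regions. The region farthest out was 46.8 kb from the Vgll2 gene body, and the nearest one left out was 50.8 kb from Tead3. Of the 47 regions, 15 (31.9%) had a peak in all 14 lists of equal length, against 23.1% of all regions, and 5 (10.6%) had one in a single library against 16.8%.

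**Figure D2:**
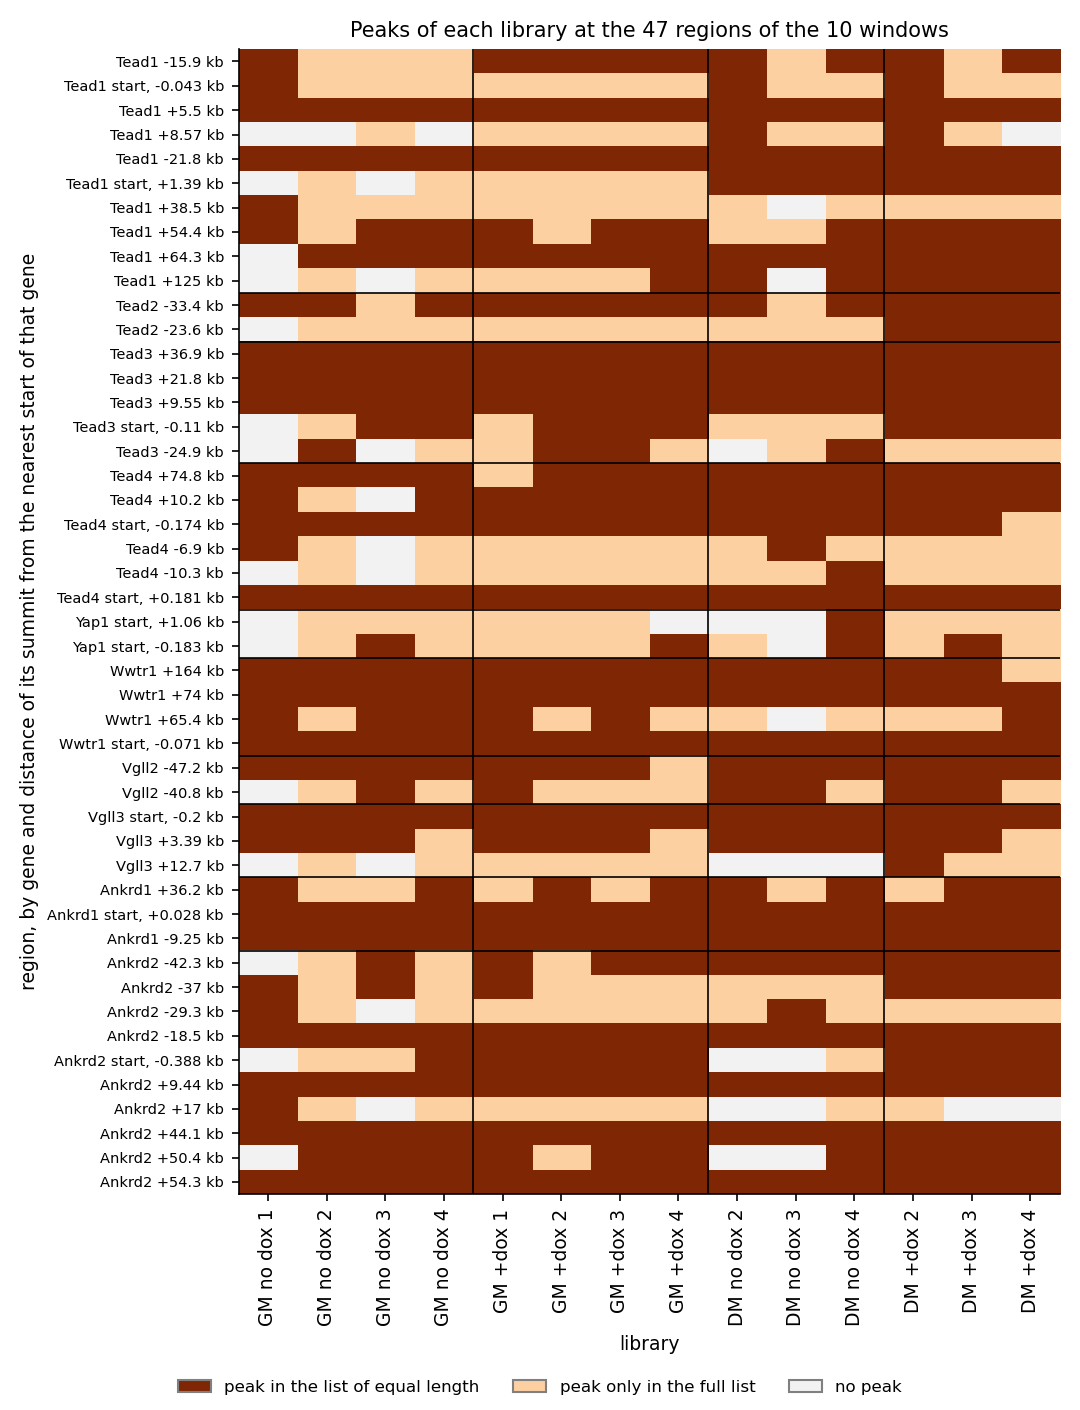
Each row is one of the 47 regions, named by its gene and the distance of its summit from the nearest start of that gene in kb, and each column is one of the 14 libraries. Dark tiles are peaks in the list of equal length, light tiles are peaks found only in the full list and grey tiles are no peak. The Tead2 region at 23.6 kb upstream is dark only in the 3 DM +dox columns. The Tead1 region labelled start at 1.39 kb, in an intron downstream of an internal start, is dark in the 6 DM columns.

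At the gene starts, Tead4, Wwtr1, Vgll3 and Ankrd1 carried a peak in the list of equal length in 14 of 14 libraries. Ankrd2 and Tead3 did so in 8, Tead1 in 7, Yap1 in 4, and Tead2 and Vgll2 in 0. Any overlap within 1 kb of any annotated start of the gene was counted. The 7 of Tead1 therefore join 2 regions. The region at its main start was in the list of equal length of 3 libraries. The intron region near an internal start, described below, was in that of the 6 DM libraries. With all deposited peaks the counts rose to 14 for Tead1, 13 for Tead3, 12 for Yap1, 11 for Ankrd2, 9 for Tead2 and 2 for Vgll2. The Tead2 and Vgll2 start peaks were low, with fold enrichments up to 7.43 and 3.99 where one was listed. Fold enrichment is the pileup of fragments at the summit over the local background, each with 1 added.

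Of the starts with a peak in all 14 libraries, that of Ankrd1 had the highest median fold enrichment. Its fold enrichment was 7.59, 19.1, 13.5 and 13.8 in GM no dox, 18.3, 19.9, 16.4 and 13.7 in GM +dox, 12.4, 14.1 and 15.6 in DM no dox, and 22.2, 14.3 and 16.3 in DM +dox. Only the first GM no dox library, the one with the shortest list, stood well below the others, and the 4 groups overlapped. The median over the 14 libraries was 14.9 for Ankrd1, 13.4 for the main start of Tead4, 11.8 for Wwtr1, 10.2 for Vgll3 and 9.48 for the main Tead1 start. The Ankrd2 region just upstream of its start, described below, had a median of 16.3 over the 11 libraries with a peak. The ranges of all neighbours in this order overlapped, from 7.59 to 22.2 for Ankrd1 down to 4.77 to 15.7 for Tead1.

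After quantile normalisation, the group means at these starts lay close together. At Ankrd1 the log2 fold enrichment in GM was 3.95 ± 0.26 without dox and 3.94 ± 0.07 with it (SD, n = 4 each), and in DM 3.95 ± 0.15 and 3.77 ± 0.19 (SD, n = 3 each). At Wwtr1 it was 3.60 ± 0.25, 3.51 ± 0.09, 3.52 ± 0.13 and 3.46 ± 0.15 in the same order. At the main start of Tead4 it was 3.53 ± 0.16, 3.62 ± 0.27, 3.63 ± 0.20 and 3.67 ± 0.20. The largest shift among these 5 starts was −0.26 (SE 0.20) at Vgll3 for DM against GM without dox, with an adjusted p of 0.684 in limma.

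**Figure D3:**
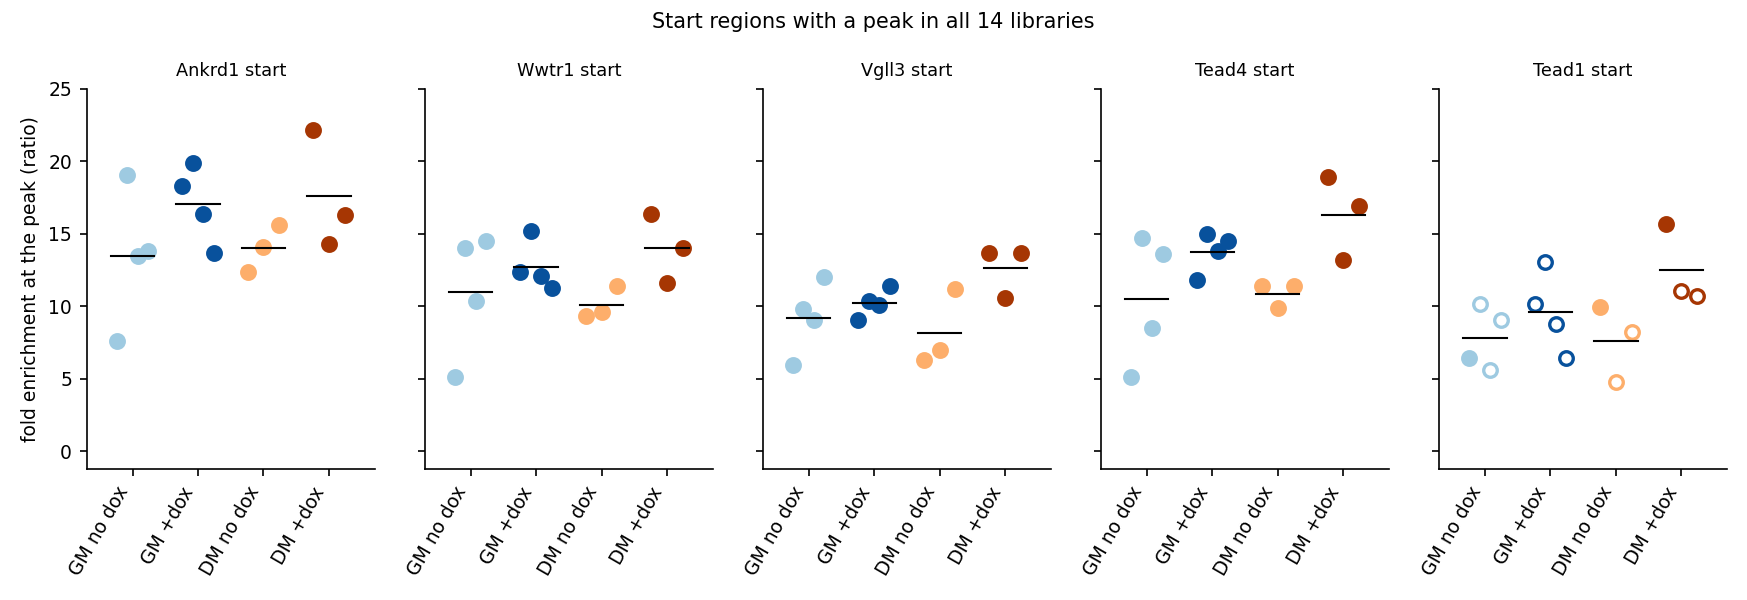
Fold enrichment at the peak (y axis, ratio) in each library at the starts of Ankrd1, Wwtr1, Vgll3, Tead4 and Tead1, by group. Filled points are peaks in the list of equal length, open points are peaks found only in the full list, and lines are group means. Before normalisation the DM +dox points of Tead4, Wwtr1 and Tead1 and the GM +dox points of Tead4 lie above those of DM no dox, the DM +dox points of Tead1 also lie above those of GM no dox, and all other pairs of groups overlap.

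Raw fold enrichment was higher in DM +dox than in DM no dox at several of these starts, a difference in the same direction as at the regions described next. At the main start of Tead4 it was 11.4, 9.87 and 11.4 without dox and 18.9, 13.2 and 16.9 with dox. After normalisation the difference there was 0.04 on the log2 scale (SE 0.18, limma adjusted p = 0.967).

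The comparison of doxycycline in DM includes the contrast on which Ankrd2 was selected. In lists of equal length, 4 of 45 regions (8.89%) had a peak in all 3 DM +dox libraries and in none of the 3 DM no dox libraries, and 0 had the opposite pattern. Genome-wide 1.61% of 21484 regions were all-or-none in this contrast, 0.824% in the direction of +dox. Since Ankrd2 was selected on this contrast and 2 of the 4 regions lie in its window, nothing is read from that share. The other 2 lie in the Tead2 and Tead3 windows. The calls depended on the lists, and 0 of the 4 remained with all deposited peaks.

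The first was the region that brought Ankrd2 into the set, at chr19:42035286-42035868, with its summit 388 bases upstream of the Ankrd2 start. Its fold enrichment in DM +dox was 22.6, 18.8 and 18.6, where it ranked 6300, 6160 and 6179 in the lists. In DM no dox a peak was found in 1 of 3 libraries, with a fold of 10.1 at rank 19310. That leaves the 3 +dox libraries above the single value without dox, and the latter outside its list of equal length. The all-or-none call here was lost when a peak had to cover 50% of its region.

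GM was not used to select Ankrd2, and the same region was less clear-cut there. With dox its fold was 20.1, 16.3, 14.1 and 11.8, and all 4 peaks were strong enough for the lists of equal length. Without dox, replicate 1 had no peak and replicates 2, 3 and 4 had folds of 10.6, 4.34 and 17.8, of which only the last was strong enough. The groups overlapped through that last library, and 4 of 4 against 1 of 4 gave p = 0.143 in a two-sided Fisher's exact test, where 0.029 is the smallest p possible. With all deposited peaks the count was 4 of 4 against 3 of 4 (Fisher's exact p = 1).

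The second Ankrd2 region lay 37 kb upstream in an intron of Ubtd1 (chr19:41998849-41999440). Its fold was 14.2, 14.5 and 12.6 in DM +dox and 5.94, 5.23 and 10.8 in DM no dox, so a peak was present in all 6 libraries and the call rests on rank. In GM it was 12, 11.3, 8.54 and 9.26 with dox and 5.15, 9.72, 7.01 and 8.1 without, and the groups overlapped. After normalisation the difference in DM was 0.49 (SE 0.20) on the log2 scale.

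The Tead2 region was at chr7:45191784-45192491, 23.6 kb upstream of Tead2 in an intron of Ccdc155, the gene of a meiotic nuclear envelope protein. Its fold was 18, 11.4 and 11.1 in DM +dox, 6.88, 5.24 and 7.48 in DM no dox, and 11.8, 10.8, 7.43 and 6.98 in GM +dox. In GM no dox it was 10.1, 3.83 and 8.49 in replicates 2 to 4, with no peak in replicate 1. The DM +dox libraries were above all those of DM no dox, and were the only 3 with this region in their list of equal length, so it was also all-or-none for DM against GM with dox. It holds CAGCTG once.

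The Tead3 region was the start of the gene itself, at chr17:28350099-28351416. Its fold was 12.3, 11.1 and 10.4 in DM +dox and 5.31, 5.99 and 8.96 in DM no dox, and it ranked between 12705 and 14479 with dox and between 15796 and 18862 without. The limit of the lists of equal length falls between these ranks, close to both. In GM the fold was 9.76, 12.4, 11.1 and 8.82 with dox, and without dox it was 9.58, 7.31 and 9.23 with no peak in replicate 1.

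Among the regions of the 10 windows, Tead1 carried the single one that was all-or-none for medium in both dox arms. The share of all regions with both calls is not given here, so the pattern is not read as particular to Tead1. It lay in an intron at chr7:112760490-112761104, 1.39 kb downstream of an internal Tead1 start, and holds CAGCTG 2 times. It was in the list of equal length in 6 of 6 DM libraries and in 0 of 8 GM libraries. Its fold was 14.1, 7.62 and 13.8 in DM no dox and 18.8, 13.1 and 14.9 in DM +dox, against 13.3, 12.1, 8.57 and 7.89 in GM +dox and 10.1 and 12.7 in the 2 GM no dox libraries with a peak. The folds overlapped between media. The call rests on rank, which ran from 3023 to 14329 in DM and from 17497 to 24384 in the 6 GM libraries with a peak, in lists of unequal length.

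**Figure D4:**
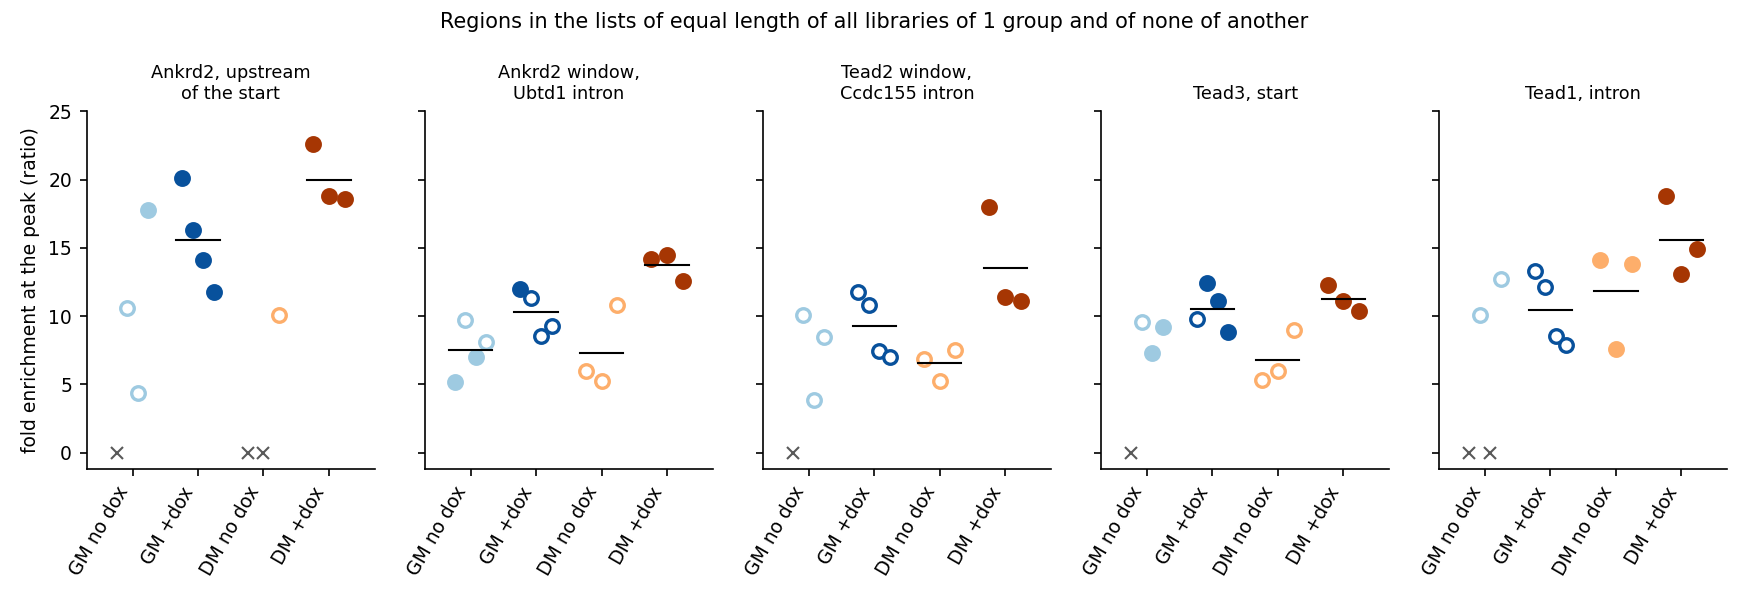
Fold enrichment at the peak (y axis, ratio) in each library for the 5 regions that were in the lists of equal length in all libraries of 1 group and in none of another. Filled points are peaks in the list of equal length, open points peaks found only in the full list, crosses at 0 mark no peak, and lines are means of groups with a peak in every library. The upstream Ankrd2 region runs from 18.6 to 22.6 in DM +dox and has 2 crosses in DM no dox.

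The remaining contrasts had few such regions. For dox in GM 0 of 41 were all-or-none, against 0.287% of 23372 genome-wide. Between media without dox 1 of 45 was (2.22%), the Tead1 intron region, against 2.03%. With dox 2 of 41 were (4.88%), in Tead1 and the Tead2 window, against 2.21%. All of these were higher in DM, a direction that held 0.984% of all regions without dox and 1.11% with dox. Counts of 1 and 2 are too small to be read against the background. Leaving out 1 library moved these small counts. The count for dox in GM became 1 without GM no dox replicate 1, by the region 15.9 kb upstream of Tead1, or without GM no dox replicate 4, by the upstream Ankrd2 region. The count for DM against GM without dox became 2 without GM no dox replicate 2 or 3 or without DM no dox replicate 3.

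In full lists the all-or-none regions were other, weaker ones. For dox in DM 5 of 107 were higher with dox and 0 lower, against 5.39% genome-wide, a share close to the background. For dox in GM it was 1 of 114 (background 0.446%), for DM against GM without dox 0 of 104 (0.411%), and for DM against GM with dox 1 of 116 (1.81%). One Tead1 intron region (chr7:112868791-112869284) had a peak in all 7 +dox libraries and in 0 of the 7 no dox libraries, with folds from 3.75 to 8.06 and pileups of 6 to 19 fragments. With dox it ranked from 32458 to 48799. The lists of GM no dox replicates 1 and 3 and DM no dox replicates 2 and 3 end before those ranks. Over all regions, the full-list calls for dox in GM were 310 higher and 0 lower. How many of those 310 were also called in DM is not given here, so nothing is read from the pattern in both media. A region in the Ubtd1 intron near Ankrd2 (chr19:42000525-42000796) had a peak in the 3 DM +dox libraries alone, with folds of 7.95, 4.03 and 5.31. The highest mean −log10 p of the 5 over all kept libraries with a peak, 18, was in an intron of Tulp3 in the Tead4 window (chr6:128345505-128345990), with folds of 11.2, 7.51 and 7.05 in DM +dox, 12, 14.2, 5.89 and 9.04 in GM +dox and 9.51 and 11.3 in 2 GM no dox libraries, and no peak in DM no dox. In the Vgll3 intron, the region at chr16:65828164-65828577 had folds of 16.3, 5.77 and 5.39 in DM +dox, 9.02, 8.84, 6.74 and 6.43 in GM +dox and 4.97 and 3.95 in 2 GM no dox libraries, and no peak in DM no dox. Its mean −log10 p was 15.3, and in DM +dox it had 58.1, 8.2 and 8.11 against 21.3, 11.8 and 11.8 at the Tulp3 intron region, so it stood higher there in 1 of 3 libraries.

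Peak height gave no called difference at the regions that could be tested. The test used limma on quantile-normalised log2 fold enrichment at the 11011 regions with a peak in all 14 libraries, which kept 26 of the 47 regions, 5 each at Tead1 and Ankrd2, 3 each at Tead3, Tead4, Wwtr1 and Ankrd1, 2 at Vgll3, 1 each at Tead2 and Vgll2 and 0 at Yap1. This filter left out 4 of the 5 all-or-none regions, all but the Ubtd1 intron region near Ankrd2, so their heights were not tested. With Benjamini-Hochberg adjustment, limma called 0 of the 26 for dox in GM (background 0%, 0 of 11011), 0 of the 21 outside the Ankrd2 window for dox in DM (background 0%), 0 for DM against GM without dox (background 0.263%) and 0 for DM against GM with dox (background 0.0454%). At an unadjusted p under 0.05 the member counts were 2, 1, 2 and 1, that for dox in DM over the 21 regions, and those over all regions 675, 738, 1211 and 825. With the replicate number as a block, limma called 0, 10, 133 and 39 of all regions and again 0 of these.

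The differences ranged from −0.32 to 0.53 for dox in GM, from −0.42 to 0.54 for dox in DM, from −0.40 to 0.30 for DM against GM without dox and from −0.30 to 0.32 for DM against GM with dox. Their medians were 0.021, −0.013, 0.005 and 0.021, beside −0.0019, −0.0036, 0.0142 and 0.0093 over all regions. One region was singled out after its values were seen, 15.9 kb upstream of Tead1 (chr7:112662992-112663998), which holds both CAGCTG and CATTCC. For dox in GM its log2 fold was 3.67 ± 0.08 with dox and 3.14 ± 0.25 without (SD, n = 4 each), a difference of 0.53 (SE 0.15) with a limma adjusted p of 0.801. The largest drop in DM without dox, also picked after its value was seen, was at the distal Wwtr1 region at chr3:57411336-57412029, by −0.40 (SE 0.13, limma adjusted p = 0.204). The interaction of dox and medium was called by limma at 0 of the 21 regions outside the Ankrd2 window, with 0 at an unadjusted p under 0.05. The counts over all regions are not given for the interaction, so these have no background beside them.

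**Figure D5:**
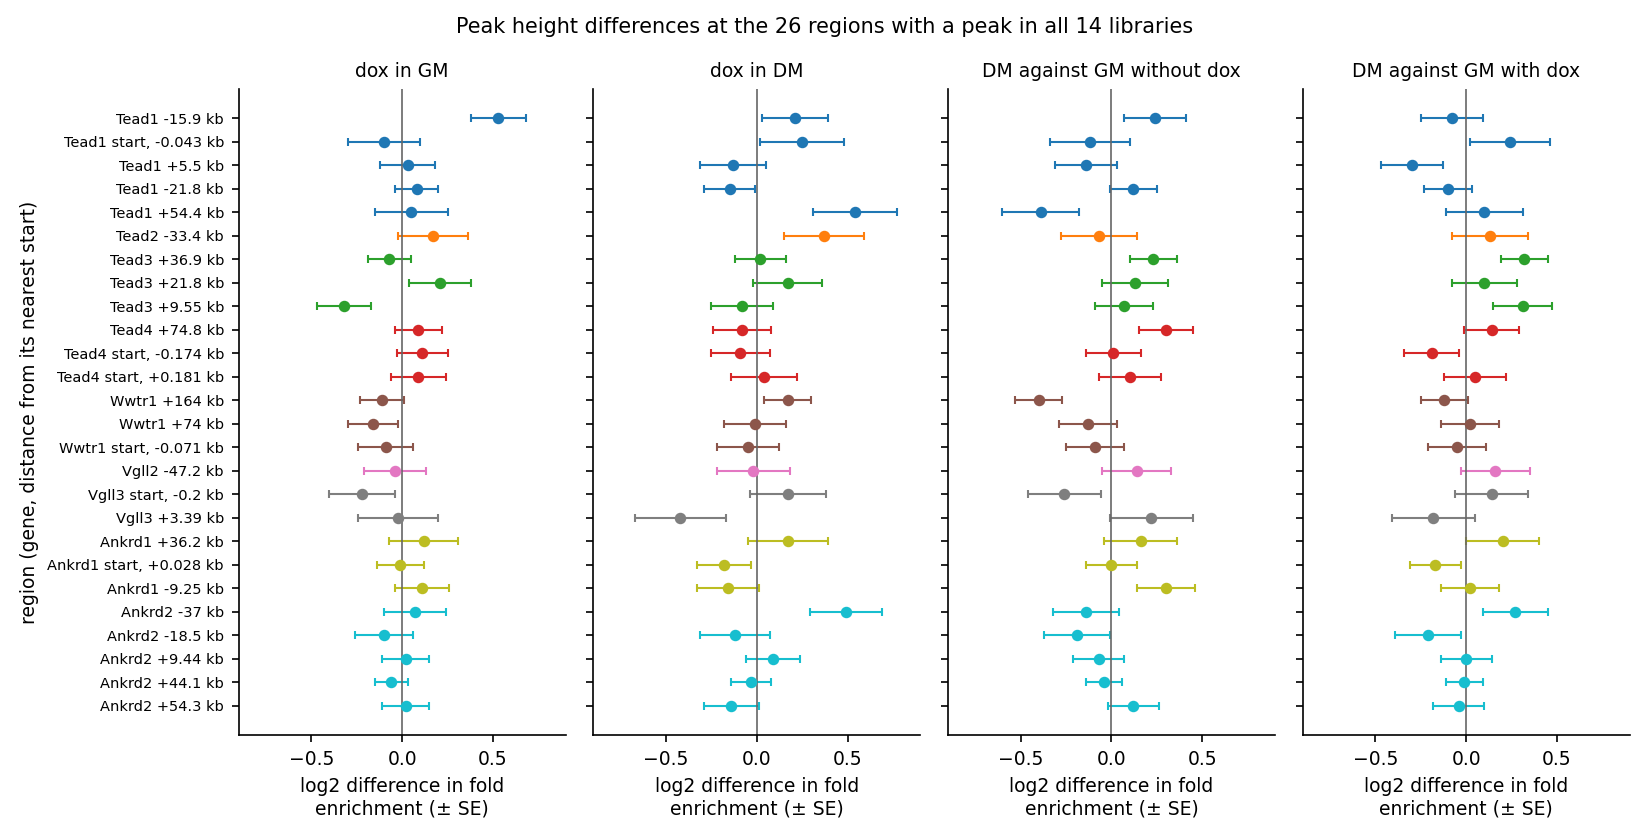
Difference in normalised log2 fold enrichment (x axis) with its SE for the 26 regions with a peak in all 14 libraries, named by gene and distance from its nearest start in kb, in the 4 comparisons, coloured by gene. The points lie between −0.42 and 0.54. The Ankrd2 points for dox in DM are a description without a test, and limma called none of the others.

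The number of peaks per window followed the same regions. With lists of equal length, the Ankrd2 window held 8, 8 and 8 peaks in DM +dox and 5, 6 and 6 in DM no dox, a description for this gene. The Tead2 window held 2, 2 and 2 in DM +dox, 1, 0 and 1 in DM no dox and 1 in each of the 4 GM +dox libraries. For dox in DM the exact permutation p at Tead2 was 0.1, the smallest that 3 against 3 allows. Between media with dox its exact permutation p was 0.029, again the smallest possible, and 0.965 after Benjamini-Hochberg adjustment over all genes. Groups without overlap occurred in 2.8% of 15903 gene windows for dox in DM, in 3.27% for DM against GM with dox, in 2.9% for DM against GM without dox and in 0.429% for dox in GM. In the last 2 contrasts 0 of the 10 windows were without overlap. The Tead1 window held 9, 6 and 7 peaks in DM +dox and 5, 4, 5 and 6 in GM +dox, which overlap at 6 (exact permutation p = 0.0857).

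The upstream Ankrd2 region was compared with all others by its profile of log2(1 + fold) over the 14 libraries, with 0 where no peak was listed. The highest Pearson correlations were 0.997 with a region 12.8 kb from the start of Mbp, 0.995 with one 19.2 kb from Efemp1 and 0.995 with one 50.3 kb from Zmym4. Like the Ankrd2 region, each had a deposited peak in all 7 +dox libraries, and without dox in 3 libraries of GM and 1 of DM. That shared pattern follows from the choice by correlation with 0 where no peak was listed. The profile also includes the DM values on which Ankrd2 was selected. The profiles share the libraries and their depth, so they are not independent of one another.

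Regions near 31 other genes of the pathway, listed for their role with earlier results of these data known, switched at shares near or below the background. The list held 16 Hippo kinases and regulators, the TEAD cofactors Vgll1 and Vgll4, the ankyrin repeat gene Ankrd23 and 12 YAP-TEAD targets. For dox in GM 0 of 143 regions were all-or-none (background 0.287%). For dox in DM 1 of 123 was (0.813% against 1.61%), lower with dox, near Nuak2, the gene of a YAP-induced kinase, at chr1:132295740-132296314. For DM against GM without dox 2 of 137 were lower (1.46% against 2.03%), near Nuak2 (chr1:132346067-132346844) and near Amotl2, the gene of a YAP-binding angiomotin (chr9:102777501-102778334). For DM against GM with dox 3 of 136 switched (2.21%, background 2.21%). Of these 2 were lower, near Amotl1 (chr9:14641681-14642573) and Myof (chr19:37907371-37908379), and 1 was higher, near Dlc1 (chr8:36660349-36661388). In peak height limma called 1 of 70 regions (background 0.263%), the same Amotl2 region, 57.2 kb from the start of Ryk. The difference was −0.89 (SE 0.20, limma adjusted p = 0.0479) for DM against GM without dox. In the other comparisons limma called 0. At an unadjusted p under 0.05 there were 5 of the 70 for dox in GM and 5 for dox in DM. For DM against GM there were 6 without dox and 4 with dox. Over all 11011 regions the counts in the same order were 675, 738, 1211 and 825. The difference at the Amotl2 region was negative in 13 of 13 other settings, from −1.22 to −0.76. The limma call held in 6 of them, with adjusted p-values from 0.0103 to 0.24, and was lost without GM no dox replicate 1 or 2 or any 1 of the 3 DM no dox libraries.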

How the data were processed

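The members and gene lists were chosen with earlier results of these data known. ATAC-seq of 16 libraries of C2C12iMyoD1 cells was used as the peak lists deposited by the authors, who ran nf-core/atacseq on mm10, removed blacklisted regions and ran the MACS2 narrow peak caller on every library by itself (the labels also name deepTools). The deposited columns are fold enrichment (a ratio over local background with 1 added to both), −log10 p and −log10 q values, and a score made from the q-value by the authors. Read counts were not used here, so no count model could be fitted. MACS2 pileups were recovered from fold and −log10 p within 0.001 and reached 99.998% to 100% of peaks per library, and the background of 0.339 to 1.13 fragments per base in the 14 kept libraries sets the precision. No 2 of the 16 lists were identical, in 120 pairs.

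Replicate 1 of both DM groups was left out as in the study. For lists of equal length, peaks were ranked by −log10 p and kept down to the size of the smallest list, that of GM no dox replicate 1. Peaks sharing a base were merged into regions. A region was all-or-none when all libraries of one group had it and the other group had it in 0. Heights were tested with limma 3.58.1 (R 4.3.3, trend, quantile-normalised log2 fold enrichment, all 4 groups in 1 fit, adjusted p threshold of 0.05), and peak numbers per protein-coding gene window with two-sided exact permutation tests. The script was tested on simulated data. Python 3.11.15, scipy 1.17.1, pysam 0.24.0 and samtools 1.23.1 were used. Named regions were the member starts, all-or-none regions in lists of equal length, limma calls, up to 2 all-or-none regions per comparison and direction in full lists, the 3 regions most like the Ankrd2 region, and pathway regions where called.

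Same-numbered libraries deviated together from their group means, with correlations from 0.106 to 0.465 over 13 pairs. Libraries of unlike number were not compared in this way, and the labels name no shared batch, so pairing is not established. The main tests were unpaired, and the replicate number entered only as a block in an alternative setting. Alternatives were other normalisations, a replicate block, other lists and ranks, all 16 libraries and leaving out each library.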

Additional observations from a re-analysis of the deposited data

Results flagged for a closer look

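In 10 of 58 sets of 4 GM libraries examined, 1 library lay apart from the other 3 by Dixon's test. All 10 were peak numbers that differed by 1 peak from an otherwise equal group, so a single peak set each flag. In lists of equal length without dox, Tead2 had 0 peaks in replicate 3 against 1, Tead3 had 3 in replicate 1 against 4, Yap1 had 1 in replicate 3 against 0, Wwtr1 had 3 in replicate 2 against 4, Vgll2 had 2 in replicate 3 against 1, and Vgll3 had 1 in replicate 4 against 2. With dox, Tead4 had 3 in replicate 1 against 4, Yap1 had 1 in replicate 4 against 0 and Vgll3 had 1 in replicate 4 against 2. With all deposited peaks, Vgll3 had 5 in GM +dox replicate 3 against 4. 0 of the 10 were fold enrichments at the named regions.

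The 2 libraries left out of all comparisons still held peaks in the 10 windows. DM no dox replicate 1 had 5 among its 1287 peaks, and DM +dox replicate 1 had 36 among its 14236. The left-out DM +dox list was thus nearly as long as the shortest kept list, and the left-out DM no dox list was far shorter than any kept list.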

How the results depend on the processing

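The all-or-none counts in the 10 windows depended on the lists. For dox in GM the count of 0 became 1 with all deposited peaks, with all 16 libraries and when a peak had to cover 50% of its region. For dox in DM the count of 4 became 1 with lists of 50% of that length or with ranking by fold enrichment. It became 5, at other regions, with all deposited peaks of the 14 libraries, and 0 with those of all 16. The Ankrd2 upstream region remained in the first 2 of these. When a peak had to cover 50% of its region the count was 3, and this region was the one lost. For DM against GM without dox the count of 1 became 0 with all deposited peaks, with the shorter lists, with ranking by fold and with all 16 libraries. For DM against GM with dox the count of 2 became 1 with all deposited peaks, 1, in the opposite direction, with the shorter lists, and 0 with ranking by fold or all 16 libraries. Leaving out each library gave 0 to 1, 4 to 6, 1 to 2 and 2 to 3 in the same order. Omitting a library cannot undo an all-or-none call, so these counts could only stay or rise. That the 5 named regions remained in each such setting follows from the definition and says nothing about their stability. The cause was not tested. All-or-none counts over all regions ranged from 30 to 310 (67 in the lists of equal length), 179 to 3419 (346), 118 to 1056 (480) and 227 to 1361 (497) over all settings. With all deposited peaks, those for dox in DM were 3410 higher and 9 lower, beside 177 and 169 in lists of equal length.

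The limma count was 0 in every comparison under every setting, the replicate block included. It covers the 10 windows, except for dox in DM, where the Ankrd2 window is left out. Counts over all regions moved from 0, 0, 29 and 5 to 0, 10, 133 and 39 with the replicate block, to 0, 4, 56 and 28 with centring on the median, to 0, 3, 32 and 32 with cyclic loess, and to 1, 0, 280 and 271 with pileup over background. With a term for replicate numbers 1 and 2 against 3 and 4 they were 0, 0, 84 and 6, with a fold of at least 2 they were 0, 0, 8 and 4, with the 2 groups only 0, 0, 4 and 50, and with all 16 libraries 0 in each. Leaving out 1 library gave 0 to 7, 0 to 0, 1 to 58 and 2 to 9. The counts of 7 and 58 came without GM no dox replicate 4, that of 1 when DM no dox replicate 3 was omitted and that of 9 when GM +dox replicate 4 was. The call near Amotl2 was lost with cyclic loess and with the 2 groups only. The difference in the Tead1 window for DM against GM with dox, 2.33 peaks, became −0.417 with all deposited peaks. That in the Tead2 window was 1 with the replicate block, where the smallest exact p is 0.25, and 0 in a window of 10 kb. Among the regions so counted the replicate block changed no limma call. Depth limits the weakest peaks, which rest on pileups of 4 to 6 fragments in the kept libraries.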
